A study of Mus musculus with 2 samples.

Results

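Cycling endothelial and mesenchymal cells of the injured mouse lung were counted and described in 2 single-cell RNA-seq libraries, 1 from Pclaf wild-type (WT) mice and 1 from Pclaf knockout (KO) mice. A kept cell (over 200 and under 5000 genes, and under 20% mitochondrial UMIs) was selected as cycling when at least 3 of the 5 cell cycle genes Mki67, Top2a, Birc5, Cenpf and Ube2c were detected. It was called endothelial when at least 2 of Pecam1, Cdh5, Cldn5 and Calcrl were detected, or mesenchymal when at least 2 of Col1a1, Col1a2 and Col3a1 were, and cells meeting both were left out. It also had to hold no UMI of Ptprc (the leukocyte antigen CD45) or Epcam (an epithelial adhesion protein) and under 3% Sftpc (surfactant protein C). A UMI is a tag that marks 1 captured RNA molecule. This rule found 123 of 45824 kept cells. In the WT library 89 were endothelial and 20 mesenchymal, and in the KO library 5 were endothelial and 9 mesenchymal.

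Both libraries came from the lungs of mice aged 8 to 10 weeks, 1 week after bleomycin, a drug that injures the lung. The dose recorded for both is 1.35 U/kg, and the study's methods state a different one. The WT mice carried intact Pclaf and the KO mice came from an existing germline knockout line. The study's methods state that the mice were male, and the number pooled is not given in the sources used here. The cells were sorted as Cd31 negative, Cd45 negative and Epcam positive, so endothelial cells (Pecam1 encodes Cd31) and mesenchymal cells are those that the sort let through, and the gate can set their share in each library. The libraries held 98171818 UMIs in 30669 barcodes (WT) and 111267567 UMIs in 17172 barcodes (KO), and the median kept cell held 2127 and 5957 UMIs. Each genotype has 1 library, so the genotypes could not be tested against each other, and every interval below (95%, exact) covers counting error only.

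Endothelial cells line the blood vessels, and in the alveolus they form a network of general capillary cells, which can divide, and of aerocytes, large cells specialised for gas exchange. Lung mesenchyme includes alveolar fibroblasts, which sit beside the alveolar epithelium, adventitial fibroblasts around larger vessels and airways, and smooth muscle. Activated fibroblasts, which deposit matrix, appear after injury. In dividing cells, replication genes are transcribed from late G1 into S phase and mitosis genes in G2 and M, and the DREAM complex represses both groups in resting cells. Pclaf encodes a small protein that binds the replication clamp PCNA.

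The rule's threshold lay on a slope and not in a gap. In the WT library 64 endothelial cells had 2 of the 5 cycle genes, just outside it, against 33 with 3, just inside, and their mean UMIs of the 5 genes were 2.66 and 4.79. Among WT mesenchymal cells the counts were 13 and 7 cells, with means of 2.85 and 4.29 UMIs. In the KO library, 1 endothelial cell lay just outside and 1 just inside, and 10 and 2 mesenchymal cells did. Cells with all 5 genes numbered 35 and 9 in WT and 3 and 5 in KO, for endothelial and mesenchymal cells. The cells were deeper than those of the same kind with none of the 5 genes, called non-cycling here. Median UMIs were 3963 in 89 cycling and 1792 in 7804 non-cycling WT endothelial cells, and 8562 in 20 cycling and 3044 in 2019 non-cycling WT mesenchymal cells. In KO they were 6443 (5 cells) and 2080.5 (408 cells) for endothelial cells, and 12106 (9 cells) and 4932 (2421 cells) for mesenchymal cells. A deeper cell has more chances to show 3 of the genes.

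Markers outside the rule were those of the labelled kinds. Of 14 other endothelial genes (Tie1, Tek, Kdr, Eng, Ptprb and the like), the median WT cycling endothelial cell held 10 and the median KO cell 11, and 81 of 89 and 5 of 5 cells held at least 3. Of 16 other mesenchymal genes (Pdgfra, Dcn, Mgp, Sparc and the like) the median cell held 11.5 in WT and 13 in KO, and all 29 cells held at least 3. A few cells stood apart from their label. In the WT library 2 cycling endothelial cells, of 574 and 1455 UMIs, held none of the 14 other endothelial genes, and they were kept. A cell was called rich in immune genes when it held at least 3 of 10 immune markers and no fewer of them than of the other markers of its own kind. In the WT library 21 cycling endothelial cells held at least 3 immune markers, of which 18 held more endothelial ones. The other 3, with 643, 6626 and 8101 UMIs, met the criterion and held 312 of the 520 UMIs of Lyz2 (lysozyme of macrophages). Another, of 7313 UMIs, had 24.2% haemoglobin UMIs and held 867 of the 941 UMIs of Hbb-bs (a beta-globin). A WT mesenchymal cell of 890 UMIs held 5 immune markers. The 4 endothelial cells carried 5.62% of that group's UMIs. Results that rest on them are given with and without them. The libraries also went against the stated sex. Xist, the RNA that coats the inactive X chromosome of female cells, had UMIs in 5811 of 30187 kept WT cells (19.2%) and 8154 of 15637 kept KO cells (52.1%), and 4 Y-linked genes (Ddx3y, Eif2s3y, Kdm5d and Uty) in 9917 (32.9%) and 3485 (22.3%). Few cells held both, 1014 and 475. Among the cycling cells, 48 of 109 in WT held Xist and 35 held a Y-linked gene, while in KO 13 of 14 held Xist and none had a UMI of the 4 Y-linked genes. The cycling cells of the libraries thus differ in these genes as well as in the genotype label, and the part of this in the KO and WT comparisons was not tested. Of the barcodes, 163 occurred in both libraries, none of them among the cycling cells, and the Scrublet doublet caller marked 2 of the cycling cells, both WT endothelial.

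Cycling cells made up about 1% of endothelial cells in both libraries. The share was 1.07% in WT (89 of 8307, interval 0.861 to 1.32%) and 1.18% in KO (5 of 422, 0.386 to 2.74%). The 2 intervals overlap, and a difference was not detectable at this depth. Among mesenchymal cells the share was 0.935% in WT (20 of 2139, 0.572 to 1.44%) and 0.364% in KO (9 of 2472, 0.167 to 0.690%), lower in KO with intervals that also overlap. When every cell was thinned to 1000 UMIs before the rule was applied, the shares were 0.673% (45 of 6686) and 0.867% (3 of 346) for endothelial cells and 0.518% (9 of 1736) and 0.194% (4 of 2057) for mesenchymal cells. The order of the libraries was the same as without thinning. The rule was applied anew to thinned cells, so these are other sets of cells: 6160 of the 8307 WT endothelial cells reached 1000 UMIs. Whether the thinned sets are as free of leukocyte and epithelial cells was not tested. The sort and the tissue dissociation act on these shares, and their part in the difference was not tested.

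**Figure D1:**
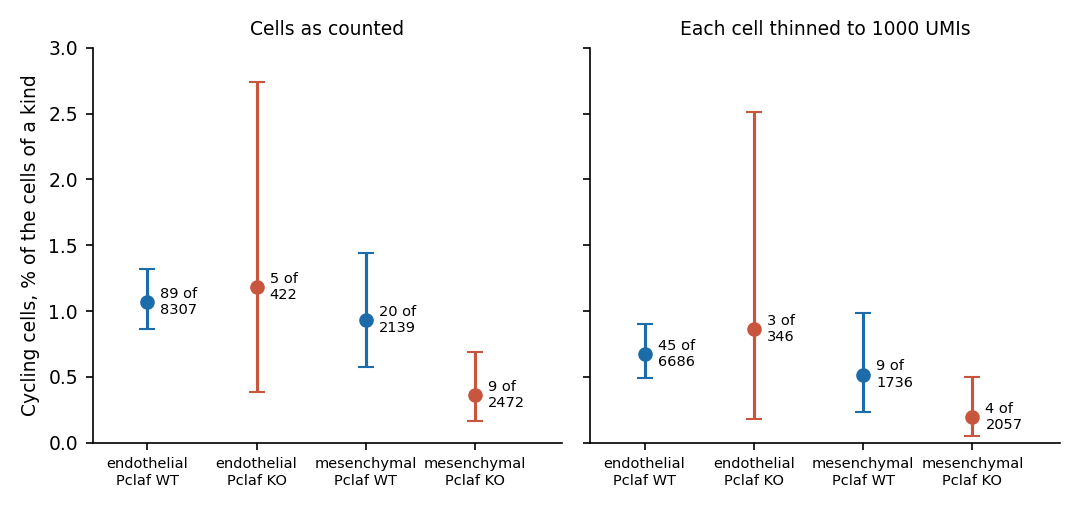
Share of cycling cells (percent of all endothelial or mesenchymal cells of the library, with exact 95% binomial intervals) in the Pclaf WT and Pclaf KO libraries, as counted and after thinning to 1000 UMIs per cell. Endothelial cells sit near 1% in both libraries as counted, and KO mesenchymal cells are lowest at 0.364%.

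Pclaf itself, which the rule did not use, was at a much higher level in cycling than in non-cycling cells of both kinds and both libraries. CPM, the UMIs of a gene divided by all UMIs of a group of cells and scaled to 1000000, is the unit of level throughout. In WT, 117 Pclaf UMIs gave 290 CPM in cycling endothelial cells, against 5.81 CPM in non-cycling ones, and 54 UMIs gave 354 CPM in cycling mesenchymal cells, against 4.48 CPM. It was detected in 46.1% of cycling endothelial cells (41 of 89) and 75.0% of cycling mesenchymal cells (15 of 20), against 1.17% and 1.34% of non-cycling cells. In WT endothelial cells the share with Pclaf was 23.4% among cells with 2 cycle genes, 24.2% with 3, 42.9% with 4 and 68.6% with 5.

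The library labelled KO still held Pclaf UMIs. There were 3 in the 5 cycling endothelial cells (82.7 CPM), where the cells held 1, 0, 0, 0 and 2, and 17 in 6 of the 9 cycling mesenchymal cells (188 CPM). Non-cycling KO cells had 3.49 and 0.848 CPM. The KO-over-WT log2 ratio was −1.81 (interval −4.11 to −0.23) in cycling endothelial cells and −0.91 (−1.79 to −0.10) in cycling mesenchymal cells. Where cells of 5000 genes or more were also let in, the mesenchymal ratio was −0.065. Reads of this 3′ kit come from the end of a transcript, which need not lie in the deleted part of the gene, so these counts do not check the genotype, and KO is used below as the label of the library.

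**Figure D2:**
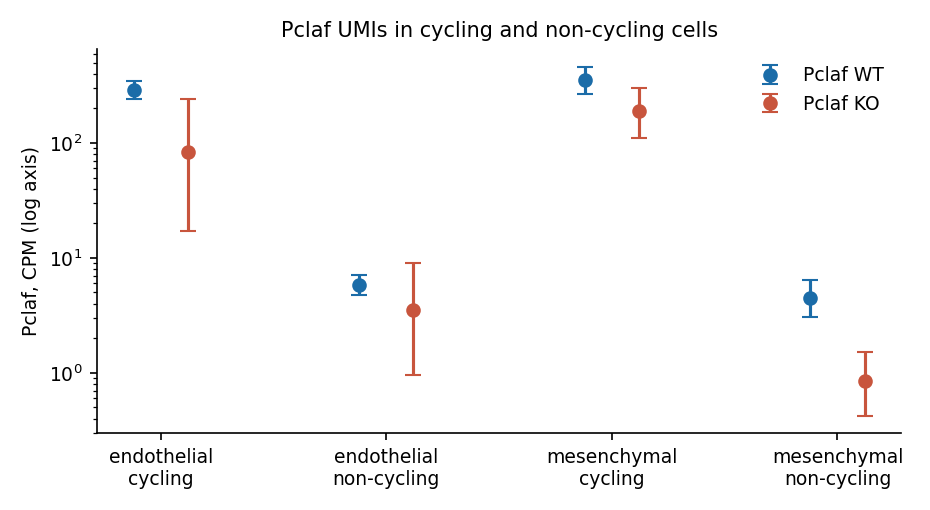
Pclaf level (CPM, log axis, with exact 95% Poisson intervals) in cycling and non-cycling endothelial and mesenchymal cells of each library. Cycling cells lie far above non-cycling cells of the same kind in both libraries, and the KO cycling cells (82.7 and 188 CPM) lie below the WT ones (290 and 354 CPM).

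The balance of replication and mitosis genes was alike in 3 of the 4 groups of cells by summed UMIs, but not by cell medians. Over the summed UMIs of 30 replication genes and 30 mitosis genes, the replication genes made up 28.7% in WT endothelial cells (27.2 to 30.2%), 28.1% in WT mesenchymal cells (25.6 to 30.7%) and 29.7% in KO mesenchymal cells (26.3 to 33.2%). In KO endothelial cells they made up 11.2% (8.77 to 14.1%). A single KO cell, of 13157 UMIs, held 306 of the 569 cycle UMIs there, and without it the share was 17.5% (13.1 to 22.6%). The 5 KO endothelial cells had replication shares of 42.6, 46.7, 6.99, 15.5 and 5.88%. None was above 50%, while 26 of 89 WT endothelial cells, 3 of 20 WT mesenchymal cells and 3 of 9 KO mesenchymal cells were. The cell medians were 25.6, 21.1, 15.5 and 16.2% for WT endothelial, WT mesenchymal, KO endothelial and KO mesenchymal cells. By these medians the KO mesenchymal cells lay beside the KO endothelial cells and below both WT groups. Without the cell with most cycle UMIs, the summed share was 29.1% in WT endothelial, 29.8% in WT mesenchymal and 34.3% in KO mesenchymal cells. The rule's 5 genes are known to peak late in the cycle.

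**Figure D3:**
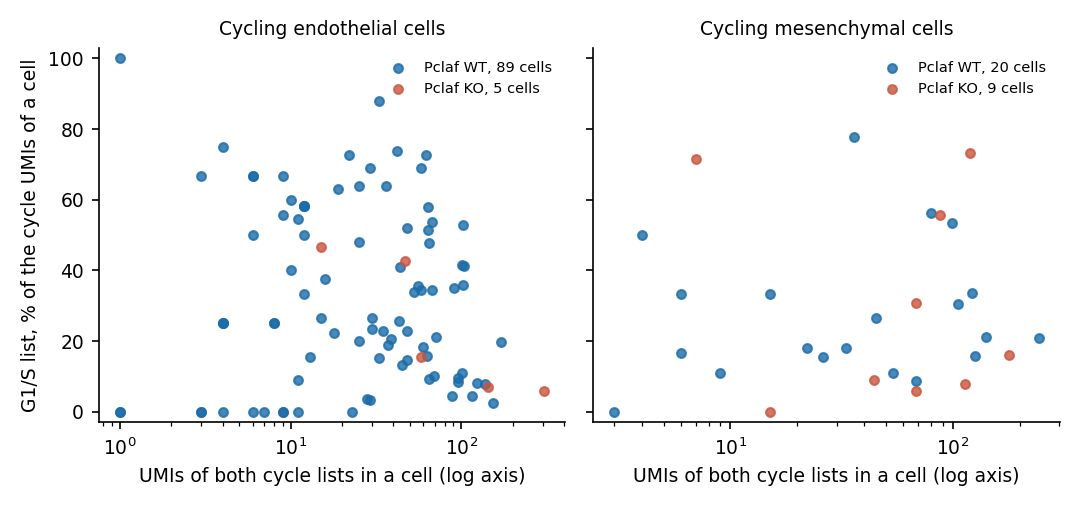
Replication share of cycle UMIs (percent, y axis) against the UMIs of the replication and mitosis lists in the same cell (x axis, log), with 1 point per cycling cell, endothelial cells on the left and mesenchymal cells on the right, coloured by library. The WT endothelial cells spread from 0 to 100%, the 5 KO endothelial cells all lie under 50%, and the KO cell furthest to the right holds 306 UMIs at 5.88%.

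The kinds of cycling cell differed from each other in the genes of their tissue role. A gene counted as past the fold when its log2 ratio was at least 1 in size in both libraries and in the same direction, among genes with at least 50 UMIs over the 2 groups in each library. Of 333 genes, 78 were past the fold between cycling endothelial and cycling mesenchymal cells (23.4%), 21 higher in endothelial cells (6.31%) and 57 lower (17.1%). The count was 148 with no upper limit on genes per cell, 49 where 4 of the 5 cycle genes were asked for, and 22 and 320 at minimums of 100 and 20 UMIs. TMM scaling shifted these ratios by −0.26 in WT and −0.17 in KO. The kinds were defined by genes that such a comparison must return, so the values are a description. Ptprb, a phosphatase of vascular endothelium, had 703 UMIs in WT and 70 in KO endothelial cells and none in mesenchymal cells, at least 88.8-fold and 58.0-fold higher. Eng, a TGF-beta co-receptor, had 811 (WT) and 1269 CPM (KO) in endothelial cells, with 26.2 and 44.3 CPM in mesenchymal cells (log2 ratios 4.95 and 4.84). Bmpr2, the type II BMP receptor, had ratios of 3.26 and 3.31, and Epas1 (HIF-2 alpha) 3.75 and 5.31.

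Hpgd, which degrades prostaglandins, was at 1292 CPM in WT endothelial cells against 72.0 CPM in mesenchymal cells, and in KO at 1462 CPM against none, at least 44.0-fold. The class I histocompatibility gene H2-K1 had log2 ratios of 2.59 and 2.60, and Cavin2, a coat protein of caveolae, 3.03 and 3.28. On the mesenchymal side, Mgp (matrix Gla protein, an inhibitor of calcification) stood at 41298 (WT) and 48529 CPM (KO), while endothelial cells had 449 and 55.2 CPM. C3 (complement), Cxcl14 (a chemokine) and Cdh11 (a mesenchymal cadherin) had 98, 96 and 73 UMIs in the 9 KO mesenchymal cells and none in the 5 KO endothelial cells, at least 13.1-fold, 12.9-fold and 9.78-fold higher. In WT, with more cells, their log2 ratios were −6.62, −5.91 and −6.76. Igfbp6, which binds insulin-like growth factors, had none in endothelial cells of either library, at least 85.4-fold and 6.70-fold lower. Of 6 mitosis genes tested none was past the fold in both libraries, with median log2 ratios of −0.20 in WT and 1.28 in KO. Of 35 DREAM targets 4 were higher in endothelial cells and none lower, with medians of 0.16 and 1.37, against −0.16 and 0.12 over all genes tested. The KO medians rest on 5 endothelial cells, of which 2 held 288 and 133 of the 505 mitosis UMIs. The DREAM list is the study's own, and its 35 genes tested here include 4 cycle genes of the rule. None of these 4 was past the fold, with medians of 0.72 in WT and 1.82 in KO. Medians of the list without them were not computed.

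Against non-cycling cells of their own kind, endothelial cells had 216 of 4228 genes past the fold (5.11%), 89 higher (2.11%) and 127 lower (3%), and mesenchymal cells 1060 of 10137 (10.5%), 423 higher (4.17%) and 637 lower (6.28%). Where a sum of 0 was set at the floor of 3 counts, 73 of the 127 and 298 of the 637 lower genes stayed past the fold, and the higher counts did not change. TMM scaling shifted the KO mesenchymal ratios by −0.21. The choice of cells by cycle genes bears on the higher genes, which are read as a description. Prc1, a spindle midzone protein, had 645 CPM in cycling and 1.94 CPM in non-cycling WT endothelial cells, and 1683 and 0.874 CPM in KO ones. In mesenchymal cells it had 583 and 2.31 CPM in WT. Hmgb2, a chromatin protein, was at 2261 against 99.1 CPM in WT and 5737 against 121 CPM in KO endothelial cells. Stmn1, which destabilises microtubules, was at 1178 against 35.3 CPM in WT and 1164 against 43.5 CPM in KO mesenchymal cells. Diaph3, a formin of the contractile ring, had a log2 ratio of 6.95 in WT mesenchymal cells (321 against 2.60 CPM), and 543 against 4.24 CPM in KO. Cks2, Cenpa, Anln, Spc24 and Ccnb2, of the kinetochore, cytokinesis and mitotic kinase machinery, were also among the 10 highest there, with ratios of 5.18 to 6.80 in WT and 5.55 to 6.37 in KO. Nav2, a cytoskeleton-associated gene, was at 699 against 16.7 CPM in WT and 607 against 26.2 CPM in KO endothelial cells (5.39 and 4.53), while in mesenchymal cells its ratios were −0.39 and 0.84. The difference between the kinds was not tested.

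The cycle genes shared by the kinds were many. Of 4056 genes tested in both kinds, 55 were higher in cycling cells of both, which is 63.2% of the 87 higher in endothelial and 41.7% of the 132 higher in mesenchymal cells. There were 22 lower in both, 20% of 110 and 12.9% of 170. All 13 replication genes tested in mesenchymal cells were higher, as were 5 of 6 mitosis genes. In endothelial cells the 1 replication gene tested was higher, as was 1 of 2 mitosis genes. Each list has 30 genes, and a cycle gene can reach the UMI minimum through the cycling cells. The cells were chosen by cycle genes, so these directions are a description. Of the DREAM targets, 42 of 243 tested were higher and 1 lower in endothelial cells, and 152 of 576 higher and 10 lower in mesenchymal cells, against 2.11% and 4.17% higher among all genes tested. The 5 cycle genes of the rule are DREAM targets, so these counts are a description, and without them 38 of 239 and 150 of 574 were higher. The median log2 ratios of the DREAM targets were 0.46 (WT) and 0.52 (KO) in endothelial cells and 0.52 and 0.76 in mesenchymal cells. The medians over all genes tested were −0.04 and −0.17 in endothelial and −0.14 and −0.04 in mesenchymal cells.

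**Figure D4:**
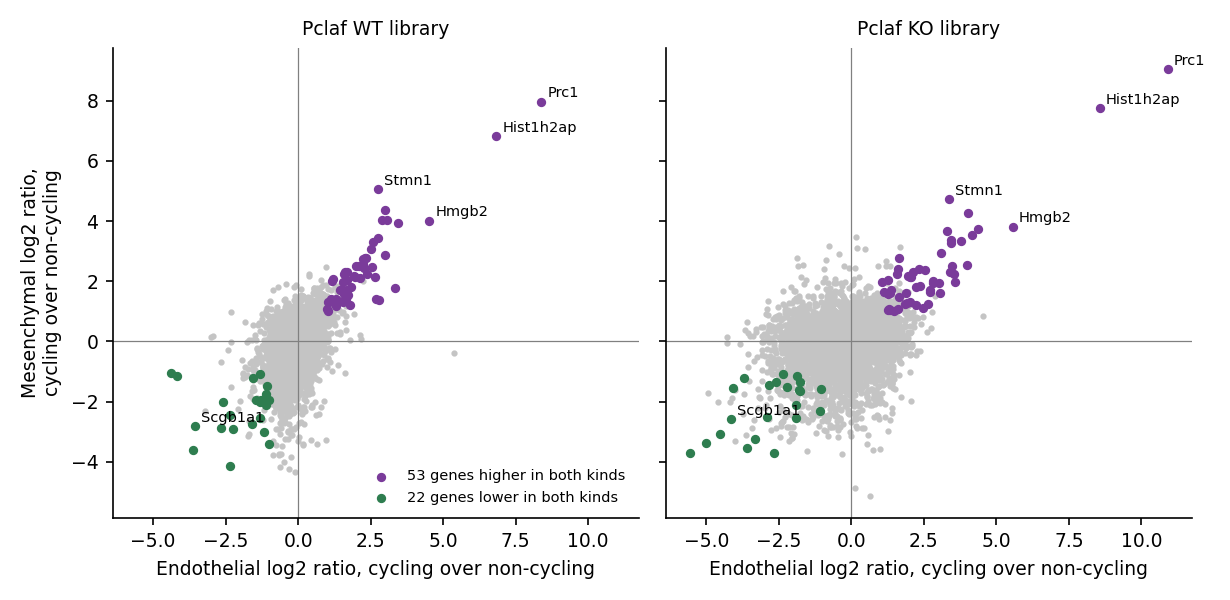
Log2 ratio of cycling over non-cycling cells in endothelial cells (x axis) and mesenchymal cells (y axis) for each gene tested in both kinds and outside the rule, with 1 panel per library and zeros handled by adding 0.5. The 53 genes past the fold upward in both kinds form the arm to the upper right in both panels, with Prc1 at its end, and the 22 genes past it downward lie to the lower left.

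Promoters of a few of these genes are shown. Many cell cycle genes are known to carry the CHR (letters TTTGAA), the CCAAT box or the E2F element (letters GGCGGGAA). Beside Pclaf, the genes are the 3 highest in both kinds, outside the rule, that have a single RefSeq window. They were ranked by their smallest ratio over kinds and libraries. Each line holds the 150 bases before the transcription start from RefSeq, build GRCm38.p6, written 5′ to 3′ on the gene's strand, with matches to these 3 motifs on either strand in capitals. Pclaf lies at chr9:65890173-65890322 (plus strand), Hmgb2 at chr8:57511693-57511842 (plus strand), Selenoh at chr2:84670709-84670858 (minus strand) and Ube2s at chr7:4812341-4812490 (minus strand).
Pclaf: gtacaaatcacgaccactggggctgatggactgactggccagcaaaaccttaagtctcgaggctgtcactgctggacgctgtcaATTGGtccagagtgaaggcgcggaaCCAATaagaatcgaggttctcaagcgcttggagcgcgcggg
Hmgb2: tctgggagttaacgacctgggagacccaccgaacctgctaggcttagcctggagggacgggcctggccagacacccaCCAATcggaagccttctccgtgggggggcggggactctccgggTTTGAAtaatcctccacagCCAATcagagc
Selenoh: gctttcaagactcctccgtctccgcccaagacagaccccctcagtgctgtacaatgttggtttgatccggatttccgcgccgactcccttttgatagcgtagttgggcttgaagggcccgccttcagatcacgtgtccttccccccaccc
Ube2s: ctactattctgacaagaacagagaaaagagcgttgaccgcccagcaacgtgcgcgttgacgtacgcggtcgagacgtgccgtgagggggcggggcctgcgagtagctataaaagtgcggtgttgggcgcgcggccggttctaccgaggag

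Pclaf has a CCAAT box at 41 to 37 bases before the start and its reverse (ATTGG) at 66 to 62. Hmgb2 has a CHR match at 30 to 25 bases and CCAAT boxes at 73 to 69 and 11 to 7. Selenoh, a redox selenoprotein, has no match in this stretch, although it was at 298 against 37.3 CPM in WT and 607 against 29.7 CPM in KO endothelial cells. Ube2s, a ubiquitin-conjugating enzyme of mitosis, has none either, at 573 against 72.0 CPM in WT and 1683 against 105 CPM in KO endothelial cells. Over 250 bases before the start, with both strands searched, 29 of the 36 genes with a RefSeq window among the 53 higher in both kinds and outside the rule held CCAAT (80.6%), against 37.5% of 27025 genes. CHR letters stood in 10 of 36 (27.8%, against 18.3%) and E2F letters in 2 (5.56%, against 2.13%). Of the 22 genes lower in both kinds, 15 had a window, of which 4 held CCAAT (26.7%) and none held CHR. Among the mitosis genes 19 of 26 held CCAAT (73.1%), and among the replication genes 12 of 24 (50%). A match is a stretch of letters and not a site of binding.

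Vessel subtype genes differed between cycling and non-cycling endothelial cells. Aerocyte genes were lower in cycling cells, with 4 of 6 tested past the fold and 3 with sums of 0 at the floor. Among all 4228 genes tested in endothelial cells, 3% were lower. Their summed level was 474 CPM in cycling and 1104 CPM in non-cycling WT cells (log2 ratio −1.22, interval −1.43 to −1.01), and 496 and 1476 CPM in KO (−1.57). Ednrb, the endothelin B receptor, was at 22.3 against 142 CPM in WT and had no UMI in KO cycling cells. With that sum at the floor it was 2.15-fold lower in KO, but the counting interval of its log2 ratio ended at −0.80, under the fold. Car4, a carbonic anhydrase on the capillary surface, was at 104 against 209 CPM in WT, and in KO at 27.6 CPM, from 1 UMI, against 339 CPM. Fibin, named in the 10 lowest genes, had 4 UMIs in WT cycling cells (9.92 against 79.7 CPM) and none in KO, at least 1.96-fold lower, which at the floor is under the fold.

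Of 5 arterial genes tested, 3 were lower, and the summed level had log2 ratios of −1.15 and −1.93. Mgp, also a mesenchymal gene, is the most abundant gene of that list, at 449 of 962 CPM in cycling WT cells, and without it the ratios were −1.10 and −1.48. General capillary genes were lower by less, with 1 of 8 past the fold, at 5673 against 8227 CPM in WT (−0.54) and 4524 against 7277 CPM in KO (−0.69). No venous gene of 6 passed, and the venous sum had ratios of −0.21 and 0.54. None of the 14 general endothelial genes passed either, and their median ratios were −0.24 and −0.07. At a depth of 1000 UMIs per cell, which 81 cycling and 5754 non-cycling WT cells reached, at least 2 general capillary markers were held by 86.4% and 89.2%, at least 2 aerocyte markers by 7.41% and 11.7%, and at least 2 arterial markers by 18.5% and 35.1%. As counted, without thinning, these shares were 94.4% and 86.9%, 29.2% and 19.8%, and 55.1% and 52.6%. All 3 of these shares as counted go against the CPM of their lists, and no order is read from them.

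Fibroblast subtype genes showed a like split, where 6.28% of all genes tested in mesenchymal cells were lower. None of 8 adventitial fibroblast genes was past the fold, with log2 ratios of the summed level of 0.00 in WT and −0.67 in KO. None of the 7 genes tested on the pericyte list and the 8 on the mesothelial list was past it either. Of 8 alveolar fibroblast genes, 7 were lower in cycling mesenchymal cells, and their summed level was 2828 against 10487 CPM in WT (log2 ratio −1.89) and 4646 against 12428 CPM in KO (−1.42). Inmt, a methyltransferase, was at 282 against 1882 CPM in WT and 432 against 2520 CPM in KO. Tcf21, a transcription factor of lung fibroblasts, was at 32.7 against 177 CPM and 44.3 against 166 CPM, and Npnt, a basement membrane ligand of integrin, at 511 against 1510 and 698 against 1590 CPM. Aspn, a small matrix proteoglycan, and Gria1, a glutamate receptor subunit, had no UMI in cycling cells of either library. Aspn was at least 7.44-fold lower in WT and 4.55-fold lower in KO, and Gria1 at least 4.75-fold and 3.41-fold. Slpi, a secreted protease inhibitor, had none either (at least 5.03-fold and 4.23-fold). Igfbp3, a carrier of insulin-like growth factors, Slc7a10, an amino acid transporter, and Actc1, cardiac actin, were also among the 10 lowest. They had 0 to 2 UMIs in the cycling cells of each library, and none in KO. In KO they were at least 3.12-fold, 1.83-fold and 1.72-fold lower, so at the floor Slc7a10 and Actc1 were under the fold.

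None of 5 activated fibroblast genes tested passed, with median log2 ratios of 1.06 in WT and 0.61 in KO. The list summed to 5283 against 2596 CPM in WT (1.03) and 2528 against 1651 CPM in KO (0.61), and Fn1 (fibronectin) was its most abundant gene. Fn1 is also among the general mesenchymal genes, and sums and marker shares without it were not computed. Cthrc1, another gene of the list, had UMIs in WT cycling cells only, 14 in a cell of 16648 UMIs and 1 in a cell of 8253 UMIs. Postn (periostin, a matrix protein of activated fibroblasts) was at 412 against 184 CPM in WT and 77.6 against 50.9 CPM in KO. A single WT cell, with 7 of 8 smooth muscle markers, held 41 of the 63 Postn UMIs, and 1 KO cell held all 7. Without these cells Postn was at 153 CPM in cycling WT cells, below the non-cycling level (log2 ratio −0.26, interval −0.94 to 0.34), and had no UMI in KO. At 1000 UMIs per cell, which 18 of 20 WT and 9 of 9 KO cycling cells reached, at least 2 activated markers were held by 44.4% of cycling and 17.7% of non-cycling WT cells, and by 44.4% and 12.7% in KO. As counted these shares were 75.0% and 40.1% in WT and 88.9% and 42.6% in KO. At least 2 alveolar fibroblast markers were held by 44.4% (8 of 18 cells) and 76.6% in WT, and by 66.7% and 84.6% in KO. As counted they were 85.0% and 88.2%, and 100% and 93.0%. Smooth muscle genes were lower for 4 of 8, and for 2 with sums of 0 at the floor. At least 2 smooth muscle markers were held by 38.9% of cycling WT cells (7 of 18), by 285 of 1585 non-cycling WT cells, and by 11.1% (1 of 9) and 8.82% in KO, and as counted by 55.0% and 22.5%, and 44.4% and 20.5%. These shares go against the summed level, which was lower in cycling cells (2331 against 3490 CPM in WT and 532 against 1538 CPM in KO), and no order is read from them. The collagens had none of 14 past the fold, with median ratios of 0.51 and 0.04.

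Other groups differed as well. Cdkn2c (p18, an inhibitor of CDK4 and CDK6) was at 273 against 11.8 CPM in WT and 441 against 11.4 CPM in KO endothelial cells, and at 203 against 48.2 CPM and 144 against 66.3 CPM in mesenchymal cells. The list of cell cycle inhibitors had 2 of 5 genes higher in mesenchymal cells, Cdkn2c and Cdkn2d. In endothelial cells none of 2 tested was past the fold, and Cdkn2c and Cdkn2d fell short of the UMI minimum in KO. Immediate early genes (Fos, Jun, Egr1 and the like, induced within minutes by stimuli, cell dissociation among them) had none of 14 past the fold in endothelial cells, with median ratios of −0.42 in WT and −2.26 in KO (−1.57 with sums of 0 at the floor), and 4 of 14 lower in mesenchymal cells. Xist was at 1009 against 231 CPM in WT (log2 ratio 2.13, interval 1.98 to 2.27) and 1214 against 413 CPM in KO (1.55, 1.07 to 2.00) endothelial cells. In mesenchymal cells its ratios were 0.21 and 0.77, under the fold.

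Airway epithelial RNA was lower in cycling endothelial cells. Scgb1a1, the secretoglobin of club cells, was at 171 against 2028 CPM in WT and 855 against 15089 CPM in KO, and Scgb3a2, Scgb3a1, Cyp2f2, Wfdc2 and Sftpb, other products of lung epithelium, were also among the 10 lowest genes. Cyp2f2 had no UMI in cycling endothelial cells of either library. It was at least 3.04-fold lower in WT and 1.26-fold lower in KO, which at the floor is under the fold. In mesenchymal cells Scgb1a1 was at 131 against 914 CPM and 865 against 5151 CPM. The summed list of 10 epithelial genes was at 241 against 2213 CPM in WT and 993 against 15854 CPM in KO endothelial cells, with Scgb1a1 its most abundant gene in each. The cycling cells were deeper, as given above, and were chosen free of Epcam, as the non-cycling ones were. The part of depth and of epithelial RNA in the comparisons was not tested.

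**Figure D5:**
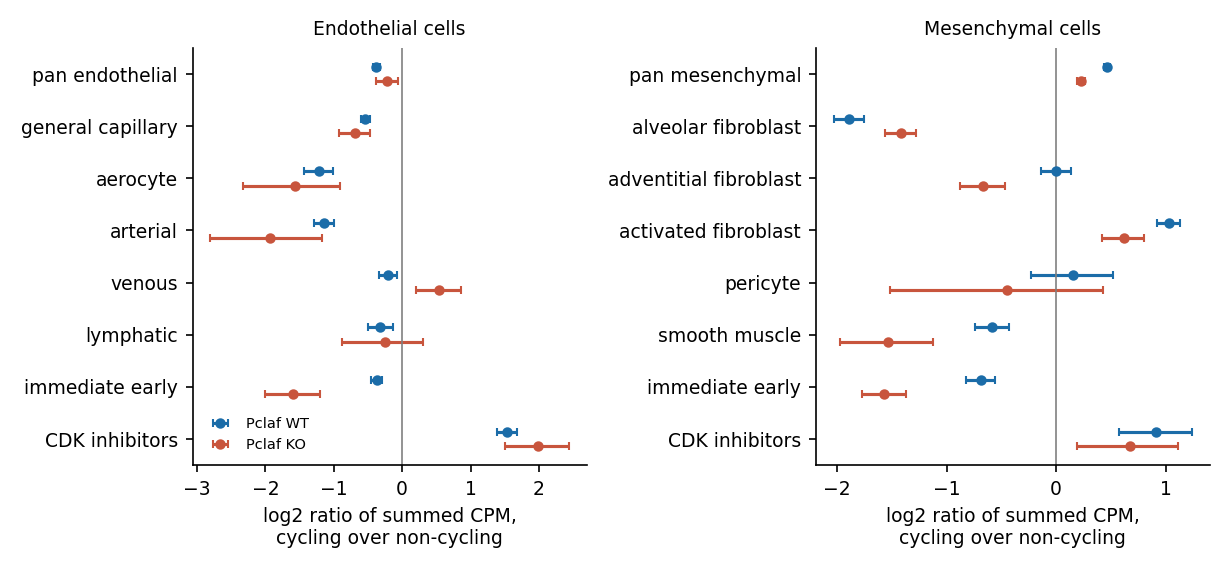
Log2 ratio of the summed level of each gene list in cycling over non-cycling cells, by kind and library, with exact 95% Poisson intervals. Alveolar fibroblast genes in mesenchymal cells (−1.89 and −1.42) and aerocyte genes in endothelial cells (−1.22 and −1.57) lie below 0 in both libraries.

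KO and WT cycling endothelial cells were compared over 5 and 89 cells, and of 1868 genes with at least 50 UMIs over both, 414 were past the fold (22.2%), 127 higher in KO (6.8%) and 287 lower (15.4%). With sums of 0 at the floor 275 of the 287 stayed. The counting interval includes 0 for 197 of the 287 lower and 15 of the 127 higher genes. Of the mitosis genes, 17 of 26 were higher in KO and 1 lower (median log2 ratio 1.12), against −0.08 over all genes tested. The list summed to 13930 CPM in KO and 6417 CPM in WT, and 2 of the 5 KO cells held 288 and 133 of its 505 KO UMIs. Without the first of them 6 of 25 mitosis genes were higher and 1 lower (median 0.40), against 123 higher and 381 lower of all 1808 genes, and the sum was 9395 CPM. Without both 3 of 23 were higher and 12 lower (median −1.02), against 135 and 522 of 1773, and the sum was 5044 CPM. These cells were left out for having the most mitosis UMIs, with every WT cell kept, so a fall follows from the choice and these values only describe how few cells carry the KO level. Ccnb2 (a mitotic cyclin) was at 607 in KO against 159 CPM in WT (1.94, interval 1.17 to 2.65) and Hmmr (a spindle protein) at 800 against 218 CPM (1.87). Linker and core histone genes were among the highest, Hist1h1e at 1489 against 285 CPM (2.39, 1.89 to 2.86) and Hist1h2ap at 1324 against 355 CPM (1.90). Their paralogs are near copies, and how reads shared among them were counted was not checked. Kdelr1 (1.97), Rab6a (1.83) and Vps29 (1.81), genes of Golgi and endosome traffic, were also among the 10 highest. The replication genes had none of 9 higher and 3 lower. The DREAM targets went both ways, with 44 of 230 higher and 32 lower (median 0.25). They include the 5 cycle genes of the rule, of which 3 were higher. The 1 KO cell named above held 53.8% of the cycle UMIs, and the groups differ in median depth, 6443 against 3963 UMIs per cell.

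The summed level of immediate early genes was lower in the KO cycling endothelial cells. The list of 14 summed to 1462 in KO and 3077 CPM in WT cycling cells, and in non-cycling cells to 4398 and 3982 CPM. Of 11 tested 7 were lower and none higher (median −1.69, or −1.19 with sums of 0 at the floor), against 15.4% lower among all genes tested. Without the 4 WT cells that stood apart 7 of 11 were still lower (−1.72). The groups held 36254 (KO) and 403294 UMIs (WT), so a gene could reach the UMI minimum through WT alone, as the next 3 genes did. Junb had 100 UMIs in WT (248 CPM) and none in KO, at least 3.00-fold lower. Fos had 76 in WT and none in KO, at least 2.28-fold, and Zfp36, which destabilises cytokine RNA, 85 and none, at least 2.55-fold. The highest WT cell of each gene held 21 of the 76 Fos UMIs and 19 of the 85 Zfp36 UMIs, and without the highest cells neither gene was past the fold at the floor (−0.47 and −0.76). The cell highest for Zfp36, of 17182 UMIs, also held 21 of the 100 Junb UMIs, and without it Junb was at −1.02 at the floor. The haemoglobin genes and Ctss (cathepsin S of macrophages) were also among the 10 lowest, and without the WT cells that stood apart Ctss fell under the UMI minimum. Hbb-bs was at 2333 CPM in WT against 27.6 CPM in KO from 1 UMI (−6.40, interval −11.71 to −3.92), and −2.80 without the WT cells that stood apart. All 4 immune genes and all 4 haemoglobin genes tested were lower in KO, and 3 of the immune genes with sums of 0 at the floor. The 10 immune markers summed to 1922 CPM in WT, with all 10 detected, and to 717 CPM in KO, with 3 detected, and Lyz2 was the most abundant in both. Without the WT cells that stood apart the WT sum was 959 CPM. The 4 haemoglobin genes summed to 4833 CPM in WT, or 460 CPM without those cells, and to 27.6 CPM in KO, from 1 UMI. Without them 1 immune gene could be tested and was not past the fold. The total past the fold was 372 without them, 115 higher and 257 lower. Kit, a receptor of general capillary cells, was at 138 in KO against 469 CPM in WT (−1.76), and Mgp at 55.2 against 449 CPM from 2 KO UMIs (−3.02, interval −6.08 to −1.15).

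KO and WT cycling mesenchymal cells were compared over 9 and 20 cells, and of 781 genes 98 were past the fold (12.5%), 55 higher in KO (7.04%) and 43 lower (5.51%). Under TMM scaling, which moved these ratios by 0.13, 67 were higher and 30 lower. Cycle genes stayed near the centre. None of 10 mitosis genes and 1 of 73 DREAM targets was past the fold, with medians of −0.22 and −0.03 against −0.15 over all genes tested. The 73 include the 5 cycle genes of the rule, none of them past the fold (median 0.02), and values without them were not computed. Top2a, at 843 in KO and 832 CPM in WT, is one of these 5 genes. The cells were chosen by it, so nothing about the genotypes is read from its level.

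Some contractile and matrix genes were lower in the KO mesenchymal cells. Only 2 of the 8 smooth muscle genes listed reached the UMI minimum, and both were lower. So were 2 of 4 activated fibroblast genes (median log2 ratio −1.15) and 2 of 8 collagens (median −0.54), against 5.51% of all 781 genes tested. Of 13 other mesenchymal genes 1 was higher and 1 lower. Under TMM scaling none of the 8 collagens and none of the 13 other mesenchymal genes was lower. Tagln (transgelin) was at 155 in KO against 890 CPM in WT (log2 ratio −2.52, interval −3.43 to −1.72) and Acta2 (smooth muscle actin) at 322 against 1041 CPM (−1.69, −2.32 to −1.12). Timp1, an inhibitor of matrix proteases, was at 377 against 1349 CPM (−1.84, −2.41 to −1.31). Col1a2 was at 2262 against 4524 CPM and Col5a2 at 610 against 1316 CPM (−1.11). Col1a2 is a gene of the rule and not one of the 8 collagens counted here, so its level is a description only. Smooth muscle genes summed to 532 CPM in 9 KO and 2331 CPM in 20 WT cells, with Acta2 the most abundant, and non-cycling cells had 1538 and 3490 CPM. The activated fibroblast list was at 2528 and 5283 CPM in cycling and 1651 and 2596 CPM in non-cycling cells. A WT cell of 9813 UMIs with 8 of 8 smooth muscle markers held 68 of the 159 Acta2 UMIs. Another WT cell, of 8871 UMIs, held 7 of the 8 markers. Without the highest cell of each library Tagln was at −3.56, Acta2 at −1.90 and Timp1 at −1.55.

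Single cells carried several of the extreme values. Of 151 WT UMIs of Igfbp5 (−5.48), 145 lay in 1 cell of 14147 UMIs that held 8 of 8 mesothelial markers. Of 887 WT UMIs of Spp1 (osteopontin, −4.33), 717 lay in 1 cell, and all 26 KO UMIs in another. Of the 67 KO UMIs of Rbfox1 (a splicing factor, 4.24), 62 lay in 1 cell of 15128 UMIs, which also held 8 of 8 mesothelial markers and 42 of the 58 UMIs of Efna5 (an ephrin ligand, 2.92). Saa3, an acute phase protein, had a ratio of 2.37 from 64 KO UMIs, of which 60 lay in 1 cell of 1920 UMIs. Without the highest cell of each library it was −0.41, and Gpc6 (glypican 6) was at −0.95 and no longer past the fold. The neuronal adhesion genes Flrt2 (2.99) and Sdk1 (2.19), the WNT receptor Ror1 (2.12) and the haptoglobin gene Hp (2.59) were also among the 10 highest, and Nrp2 (neuropilin 2, −1.79) and Ddb1 (a DNA repair factor, −1.86) among the 10 lowest. Of the 10 highest and 10 lowest genes in mesenchymal cells, 18 of 20 stayed past the fold in this way, with intervals of 5 of the 20 that include 0. In endothelial cells 10 of the 20 then had no KO UMI, and with these at the floor 12 of the 20 stayed past the fold.

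Across the kinds, 593 genes were tested in both KO comparisons, which share the same libraries. The sharing to be met without a genotype difference was not computed, so the counts that follow are a description. Among these, 55 were higher in KO in endothelial and 25 in mesenchymal cells, of which 4 were shared (7.27% and 16%), and 51 and 27 were lower, of which 5 were shared (9.80% and 18.5%). Higher in KO in both were Arf4 (a Golgi GTPase, log2 ratios 1.18 in endothelial and 1.57 in mesenchymal cells), Hist1h2ap (1.90 and 1.31), Sftpc (2.07 and 4.57) and Scgb1a1 (2.32 and 2.72). The last 2 are epithelial products. Sftpc is a gene of the rule, which keeps it under 3%, and Scgb1a1 was also higher in KO non-cycling cells (15089 against 2028 CPM in endothelial cells). Lower in KO in both were Lyz2 (−1.02 and −1.50) and 4 genes with 3 or fewer KO endothelial UMIs. Without the WT cells that stood apart, the endothelial ratio of Lyz2 was 0.22 (interval −0.47 to 0.84), on the other side of 0 and under the fold. Spp1 had a ratio of −4.12 (1 KO UMI, interval −9.43 to −1.62) in endothelial and −4.33 in mesenchymal cells, and fell under the UMI minimum in endothelial cells without those WT cells, as S100a4 did. Lpl, lipoprotein lipase, had −3.54 (1 KO UMI, −8.85 to −1.03) and −1.37, and Gpx1, glutathione peroxidase, −1.33 (3 KO UMIs, −3.64 to 0.26) and −1.73. S100a4, a calcium-binding protein, had no KO UMI in endothelial cells and 50 in WT, and its mesenchymal ratio was −1.36. With KO at the floor the endothelial ratio of S100a4 was −0.58, under the fold. Csrp2, a LIM protein, was higher in KO endothelial (1.79) and lower in KO mesenchymal cells (−1.37), while Btg2, an antiproliferative gene, was lower in endothelial (−1.14 from 2 KO UMIs, interval −4.22 to 0.79) and higher in mesenchymal cells (1.40), and Myo1d, a myosin, did the same (−1.52 from 2 KO UMIs, interval −4.60 to 0.39, and 1.23). The difference between the kinds was not tested.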

How the data were processed

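Lungs of both genotypes, 1 library each, were profiled with a 10x Genomics 3′ v3.1 kit. The authors deposited UMI counts per gene and cell barcode, not normalized, for 31053 genes. The labels name Cell Ranger 3.1.0, STAR and GRCm38/mm10, whereas the matrix header gives software version 5.0.0. The members and the gene lists were chosen with earlier results of these data known.

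UMIs were summed per library, kind and state and divided by the summed UMIs (CPM). Ratios carry an exact conditional Poisson interval, with 0.5 added where 1 sum was 0. Shares carry Clopper-Pearson intervals. A sum of 0 is bounded by a floor of 3 counts over the group of cells. Genes needed 50 UMIs over both groups, and "past the fold" means 1 log2 unit. Beside the lists, genes were named from the 10 highest and 10 lowest outside the rule in each comparison, and not all of these are printed. Genes past the fold the same way in both kinds in the KO comparisons were named too. Genes past the fold in opposite directions in the 2 kinds were named after their values were seen. No test across genes was run, since each genotype has 1 library.

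Doublets were called with Scrublet (scanpy 1.11.5) per library and kept in the main values. It called 7.76% of WT and 2.70% of KO barcodes, against 24.1% and 12.5% expected. The ratios and intervals were tested on simulated data with known answers.

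Alternatives were other UMI minimums, TMM factors (edgeR 4.0.16), a denominator without mitochondrial, ribosomal and surfactant genes, 4 of 5 cycle genes, no upper limit on genes, removal of Scrublet doublets and thinning to 1000 UMIs. Leaving out the cells rich in immune or haemoglobin genes, the highest cell of each gene, the KO cells with most mitosis UMIs, Mgp and the rule's DREAM targets were chosen after seeing the data. Python 3.11.15, numpy 2.4.6, scipy 1.17.1 and R 4.3.3 were used. PCR duplicates are collapsed by UMIs.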

Additional observations from a re-analysis of the deposited data

Results flagged for a closer look

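Cells that met the cycle and kind criteria and were left out for Ptprc, Epcam or Sftpc are a signal outside the comparisons above. In the WT library, 153 cycling endothelial cells of 242 were left out, 147 of them for Ptprc, of which 18 held a single Ptprc UMI. In the KO library 5 of 10 were left out. Of the cycling mesenchymal cells, 10 of 30 in WT and 9 of 18 in KO were left out. With them the cycling endothelial cells would be 242 and 10, and the mesenchymal ones 30 and 18.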

How the results depend on the processing

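No paired analysis was possible because each genotype has 1 library and the labels carry no replicate numbers. Leaving out replicates was likewise not possible. Removal of Scrublet doublets and removal of the cells rich in immune or haemoglobin genes left the 19 main counts, shares and ratios computed under them within 1.5 times or within their counting intervals. Under TMM factors the 5 totals past the fold, and under the other denominator these and the 2 Pclaf ratios, did so too. No other main value was computed under those scalings. The UMI minimum moved 4 of the 5 totals past the fold by over 1.5 times, while that of cycling against non-cycling mesenchymal cells stayed within it. At 100 UMIs the 4 were 22 (endothelial against mesenchymal), 111 (cycling against non-cycling endothelial), 120 (KO against WT endothelial) and 26 (KO against WT mesenchymal), and at 20 UMIs 320, 413, 1461 and 411. With 4 of 5 cycle genes there were 56 WT endothelial and 13 WT mesenchymal cells, the WT endothelial share was 0.674%, its replication share 26.5%, and 49 genes were past the fold between the kinds. With no upper limit on genes that last count was 148, and the Pclaf ratio in mesenchymal cells was −0.065. At 1000 UMIs per cell the members numbered 45 and 3 (WT and KO endothelial) and 9 and 4 (mesenchymal), and the WT shares were 0.673% and 0.518%. Saa3 reversed, to −0.41, without its highest cells. The cause of these changes was not tested. Cell numbers limit the KO groups most: 3 counts in the 5 KO endothelial cells are 82.7 CPM.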
